A study of Mus musculus with 8 samples.

Results

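The genes described here are the Wnt ligands, their receptors and co-receptors, the secreted inhibitors of the pathway and 3 of its intracellular members, measured in the annulus fibrosus (AF), the fibrous ring of the intervertebral disc. They were selected by gene symbol, with earlier results of these data known, and comprise every probe set annotated to a Wnt, Frizzled (Fzd), Sfrp or Dkk gene or to *Lrp5*, *Lrp6*, *Axin1*, *Axin2*, *Lef1* or *Wif1*. This gave 43 of the 22206 probe sets tested, 1 for each gene, with 19 ligands, 12 receptors and co-receptors, 9 secreted inhibitors and 3 intracellular members. The symbols *Ctnnb1* and *Tcf7* were also part of the choice but matched no probe set in the annotation used, and these 2 genes were not analysed here. AF tissue of the lumbar discs came from 4 *Abcc6*-/- mice (KO mice 6, 7, 8 and 9), which lack the transporter ABCC6 in the whole body, and from 4 wild-type mice (WT mice 1, 2, 3 and 5). All mice were female and 7 months old, the study's methods give C57BL6J mice for the deletion, and neither genotype received a treatment. The tissue of all lumbar discs of a mouse was pooled and run on 1 Mouse Clariom S array, so that the mice are the replicates. The p-values for KO against WT set the difference between genotypes against the spread between mice. Values are log2 signals after sst-RMA, the normalization of the array maker's software.

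Wnt proteins are secreted lipid-modified ligands. In the canonical branch they bind a Frizzled receptor together with the co-receptor LRP5 or LRP6, the complex of AXIN, APC and kinases that marks beta-catenin for destruction is held off, and beta-catenin then acts with TCF/LEF factors on target genes such as *Axin2*. SFRP proteins and WIF1 bind the ligands outside the cell, and most DKK proteins act on the LRP co-receptors, whereas DKK3 is a divergent member of that family. The pathway is best known in the skeleton for its part in bone formation and in the differentiation of cartilage and fibrous tissue.

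The probe set of *Abcc6*, given first as the targeted gene, stood between 5.01 and 6.17 in KO mice and between 4.97 and 5.25 in WT mice, near the negative controls of the arrays (medians 5.40 to 5.995), and so gives no check of the genotype labels. Of 12 AF and fibroblast markers, 6 were above the 95th percentile of the negative controls on all 8 arrays, among them *Col1a1*, *Comp*, *Chad* and *Dcn*, while 5 were above it on none, among them the tendon and annulus markers *Scx*, *Mkx* and *Tnmd*. All 11 measured neutrophil markers were above that level on all 8 arrays, and 10 of them had a lower mean in KO (list means 15.87 to 17.96 in KO mice and 17.32 to 17.97 in WT mice). Means were higher in KO for 7 of 7 osteoclast markers (list means 9.30 to 10.83 in KO and 9.15 to 10.16 in WT mice), 5 of 5 erythroid markers (12.07 to 13.37 in KO and 10.73 to 13.20 in WT mice) and 7 of 8 osteoblast markers (11.39 to 11.71 in KO and 10.70 to 11.91 in WT mice). They were lower in KO for 4 of 5 Schwann cell and nerve markers (7.29 to 8.62 in KO and 8.09 to 10.80 in WT mice) and 7 of 11 skeletal muscle markers (6.10 to 6.34 in KO and 6.22 to 7.48 in WT mice), both highest in WT mouse 1. Means were also higher in KO for 7 of 8 nucleus pulposus and notochord, 7 of 9 T cell and 5 of 6 adipocyte markers. For 8 of 12 AF and fibroblast markers they were lower. The other counts were 5 of 10 chondrocyte, 3 of 8 B cell, 4 of 8 macrophage and 4 of 7 endothelial markers higher in KO. Of all probe sets 52.4% had a higher mean in KO, against 28.1% of those above the 95th percentile on at least 4 arrays. Many of these markers were near background. Above the 95th percentile on no array were 10 of 11 skeletal muscle, 3 of 5 Schwann cell and nerve, 3 of 7 osteoclast and 2 of 8 osteoblast markers. The same held for 1 of 5 erythroid, 3 of 8 nucleus pulposus and notochord, 7 of 9 T cell and 5 of 6 adipocyte markers. The ranges of these lists overlapped between genotypes, and their part in the KO minus WT differences was not tested. The contrast between the medians of positive and negative control probe sets, a measure of how far an array separates signal from background, was 2.99, 2.37, 4.30 and 2.85 in KO mice and 4.28, 3.17, 4.22 and 3.61 in WT mice. It averaged 3.13 ± 0.83 in KO and 3.82 ± 0.53 in WT mice (SD, n = 4 each), and values with this contrast as a covariate are given for groups of genes and for many of the genes described singly. In such bulk tissue, fewer cells of a type and less RNA per cell cannot be told apart.

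Little of the family gave a clear signal. *Wif1*, a secreted inhibitor that binds Wnt ligands, was above the 95th percentile of the array's own negative control probe sets on all 8 arrays, and *Sfrp4*, a secreted Frizzled-related inhibitor, on 5. No other member reached this level on at least 4 arrays, so that 2 of 43 members did, against 12.7% of all probe sets tested. On all 8 arrays the count was 1 of 43, against 5.90% of all probe sets. The co-receptor genes *Lrp6* and *Lrp5* exceeded the level on 3 and 2 arrays and *Dkk3* on 1, while 38 members exceeded it on none. For *Lrp6* these were WT mice 1, 3 and 5, for *Lrp5* KO mouse 8 and WT mouse 3, and for *Dkk3* WT mouse 3. The number of members above the level was 2, 1, 3 and 1 in KO mice and 3, 2, 5 and 2 in WT mice. The share of all probe sets above it on the same arrays was 8.83%, 7.08%, 18.2% and 9.41% in KO mice and 16.2%, 10.1%, 16.0% and 14.2% in WT mice, so that the members were most often above it in WT mouse 3 and all probe sets in KO mouse 8. Against the lower mark of the median negative control, 15 of 43 members were above it on all 8 arrays, where 47.8% of all probe sets were, and 17 were above it on none.

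**Figure D1:**
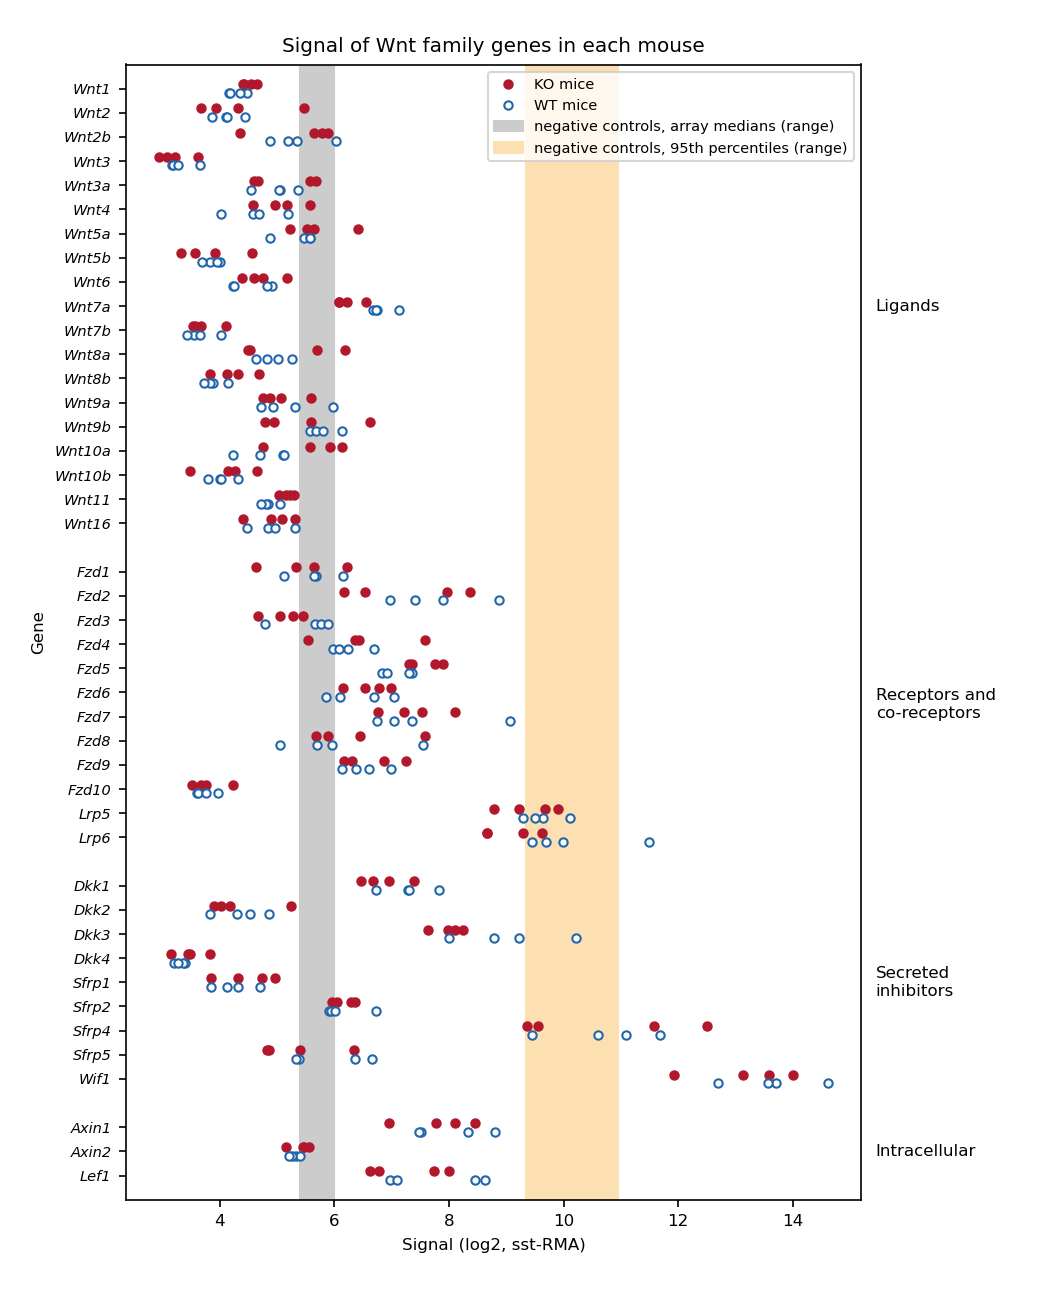
Log2 signal (horizontal axis) of each of the 43 genes (vertical axis, by role) in 4 KO mice (filled red) and 4 WT mice (open blue); the grey band spans the medians and the orange band the 95th percentiles of the negative controls over the 8 arrays. *Wif1* lies to the right of both bands in all mice, whereas most ligands lie at or left of the grey band.

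None of the 43 members passed the study's cutoff of unadjusted p of at most 0.01 with a fold change of at least 1.75 in limma, where 0.725% of all probe sets passed. The methods' t-test also gave 0 members at this cutoff. After Benjamini-Hochberg adjustment over all probe sets no member passed 0.05 in limma, nor did any of the 22206 probe sets (0%), and the smallest adjusted p among the members was 0.848. At unadjusted p under 0.05 limma gave 3 of 43 members (6.98%), against 5.28% of all probe sets. These were the inhibitor gene *Dkk3*, the co-receptor gene *Lrp6* and the ligand gene *Wnt7a*, all lower in KO, a direction in which 2.46% of all probe sets passed, and none was higher in KO, where 2.82% did. Of the members, 25 of 43 had a mean higher in KO, against 52.4% of all probe sets. Only 18 did with quantile normalization (50.5% of all probe sets), 21 with median centring (48.1%), 18 with the control contrast as a covariate (49.8%) and 17 without KO mouse 6 (53.2%). Their median log2 fold change was 0.05, against 0.03 for all probe sets. The precision of each difference is limited by the number of arrays, and a p above the threshold does not show that the genotypes are alike.

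**Figure D2:**
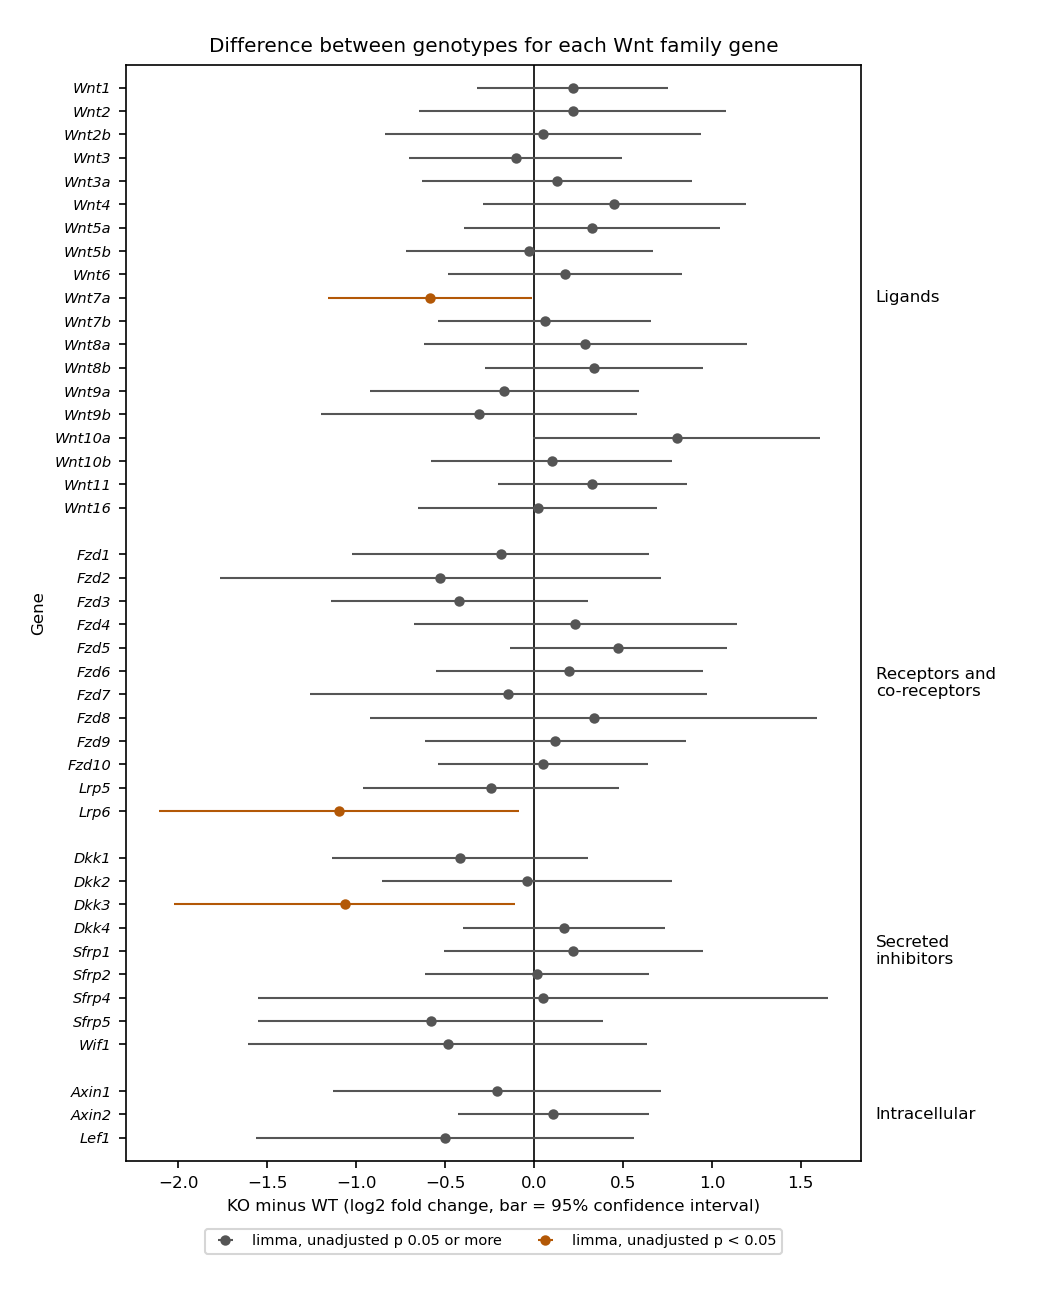
KO minus WT difference (log2 fold change, horizontal axis) of each gene (vertical axis, by role) with its 95% confidence interval from limma; brown marks unadjusted p under 0.05. *Dkk3*, *Lrp6* and *Wnt7a* lie left of 0 with intervals that exclude it, and the interval of *Wnt10a* reaches to 0 from the right.

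Among the 19 ligands the signal was low in both genotypes. None was above the 95th percentile of the negative controls on any array, 12 were never above the median negative control, *Wnt7a* was the 1 ligand above it on all 8 arrays, and *Wnt9b* was above it on 5. The median over the 19 ligands was 5.07, 5.47, 4.53 and 4.76 in KO mice and 4.70, 4.82, 4.55 and 4.88 in WT mice. KO mouse 7, whose control contrast was the lowest, had the highest ligand median, and KO mouse 8, whose contrast was the highest, had the lowest. The means of 14 ligands were higher and those of 5 were lower in KO, with a median log2 fold change of 0.13, whereas quantile normalization gave 10 higher and 9 lower with a median of 0.00383. On leaving out single mice 10 (without KO mouse 6 or 7) to 15 (without WT mouse 1 or 5) were higher, and the median ran from 0.02 (without KO mouse 7) to 0.29 (without KO mouse 8), with 0.03 without KO mouse 6 and 0.07 without WT mouse 3. With the control contrast as a covariate the counts were 7 higher and 12 lower, with a median of -0.08.

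*Wnt7a*, a ligand known from limb and neural development, was lower in KO mice and its genotypes did not overlap. Its log2 signal was 6.22, 6.08, 6.08 and 6.56 in KO mice and 6.67, 7.14, 6.74 and 6.73 in WT mice. KO mouse 9 lay closest to the WT range, and WT mouse 2 stood above the other WT mice. The means were 6.23 ± 0.22 in KO and 6.82 ± 0.21 in WT mice (SD, n = 4 each), and the log2 fold change was -0.59 (standard error 0.26, 95% confidence interval -1.16 to -0.01, unadjusted p = 0.0458 and Benjamini-Hochberg adjusted p = 0.848 from limma). It was the 1 member of 43 with no overlap, whereas 2.53% of all probe sets had none, 0.973% with KO lower and 1.55% with KO higher. The values lay between the percentiles 51.6 and 73.9 of the negative controls. Adjusting for the control contrast in limma gave a difference of -0.69 (unadjusted p = 0.0309), while the unadjusted p was above 0.05 with an intensity trend (unadjusted p = 0.0752) and with array quality weights (unadjusted p = 0.0603). Leaving out single mice gave -0.69 to -0.48, and the unadjusted p stayed under 0.05 only without KO mouse 9 (unadjusted p = 0.0323 from limma) and was highest without WT mouse 2 (unadjusted p = 0.123).

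*Wnt10a*, a ligand with known roles in tooth, hair and skin development, had the largest positive difference of the family and is named after its values were seen. In log2 signal it stood at 6.13, 5.92, 4.74 and 5.57 in KO mice and 4.70, 5.10, 4.22 and 5.12 in WT mice. KO mouse 8 lay within the WT range and the other 3 KO mice above it. The signal was near background, above the median negative control on only 1 array. Its values lay between the percentiles 19.8 and 57.0 of the negative controls. The means were 5.59 ± 0.61 in KO and 4.79 ± 0.42 in WT mice (SD, n = 4 each), and the log2 fold change was 0.80 (standard error 0.36, unadjusted p = 0.0508 from limma). The unadjusted p was 0.0483 with quantile normalization, 0.0485 with median centring, 0.0390 with an intensity trend, 0.0237 with array quality weights and 0.0739 with the methods' t-test. Without KO mouse 8 the difference was 1.08 (standard error 0.32, unadjusted p = 0.00724), which passed the cutoff, as 4.47% of all probe sets did without this mouse. Adjusting for the control contrast gave 0.36 (unadjusted p = 0.262), and the part of the contrast in the difference was not tested.

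The remaining 17 ligand genes differed by -0.31 (*Wnt9b*) to 0.45 (*Wnt4*) between KO and WT mice on the log2 scale, each with an unadjusted p above 0.05 in limma. Once the fit held the control contrast, *Wnt9b* was at -0.71 and *Wnt4* at 0.06, and the sign turned for 7 of the 19 ligands. *Wnt11* and *Wnt5a*, ligands best known for the branch without beta-catenin, were at 0.33 (95% confidence interval -0.20 to 0.86) and 0.33 (-0.40 to 1.05). By the methods' t-test, which uses the spread of the single gene alone, *Wnt11* had an unadjusted p of 0.0105, against 0.200 in limma. *Wnt11* was below the median negative control on every array (percentiles 29.0 to 41.6). *Wnt3a*, a classical canonical ligand, was at 0.13 (-0.63 to 0.89), and *Wnt16*, a ligand linked to cortical bone, at 0.02 (-0.65 to 0.69). With the contrast in the fit *Wnt5a* was at 0.10, *Wnt3a* at -0.09 and *Wnt16* at 0.32. These intervals hold differences in both directions.

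Promoter sequences are shown for 4 members, *Wnt7a* for its lack of overlap, *Wif1* for its signal, and *Wnt11* and *Wnt5b* because their promoters hold the TCF/LEF core motif, the DNA element bound by the factors through which the pathway acts. RefSeq sequences of the build GRCm38.p6 were at hand for 28 of the 43 member genes (34 promoters). The motif CTTTGAT, searched on both strands in the 250 bases before each start site, was found in 2 of these 34 promoters (5.88%), against 3.21% of 32851 promoters of all genes. The regions are chr6:91411354-91411603 (minus strand) for *Wnt7a*, chr10:121033754-121034003 (plus strand) for *Wif1*, chr7:98834862-98835111 (plus strand) for *Wnt11* and chr6:119449387-119449636 (minus strand) for *Wnt5b*. Each is printed 5′ to 3′ on the strand of its gene, with the motif, read on either strand, in capitals.
Wnt7a: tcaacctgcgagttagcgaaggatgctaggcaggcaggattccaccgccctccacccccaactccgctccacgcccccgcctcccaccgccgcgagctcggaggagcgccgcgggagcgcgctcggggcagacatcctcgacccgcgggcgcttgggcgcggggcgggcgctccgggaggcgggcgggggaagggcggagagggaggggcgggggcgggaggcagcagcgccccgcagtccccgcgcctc
Wif1: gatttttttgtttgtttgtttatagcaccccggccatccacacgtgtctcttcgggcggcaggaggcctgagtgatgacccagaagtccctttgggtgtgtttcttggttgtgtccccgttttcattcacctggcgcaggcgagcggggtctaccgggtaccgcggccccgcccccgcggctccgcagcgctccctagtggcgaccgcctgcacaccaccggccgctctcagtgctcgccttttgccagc
Wnt11: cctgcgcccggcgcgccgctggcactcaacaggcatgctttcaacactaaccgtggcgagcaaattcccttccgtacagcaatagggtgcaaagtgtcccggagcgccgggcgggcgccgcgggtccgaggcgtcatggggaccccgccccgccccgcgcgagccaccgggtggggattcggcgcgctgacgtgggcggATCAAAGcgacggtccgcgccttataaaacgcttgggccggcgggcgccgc
Wnt5b: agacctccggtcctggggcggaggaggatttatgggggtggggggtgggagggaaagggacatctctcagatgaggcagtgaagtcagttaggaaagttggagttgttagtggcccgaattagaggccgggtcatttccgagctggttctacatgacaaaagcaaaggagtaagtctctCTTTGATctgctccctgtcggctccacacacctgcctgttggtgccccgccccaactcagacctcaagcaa
The *Wnt11* match reads ATCAAAG, the motif on the opposite strand, and starts 51 bases before the start site, and the *Wnt5b* match starts 71 bases before it. A match is a run of letters and not a site shown to be bound, and *Wnt11* and *Wnt5b* were at differences of 0.33 and -0.03 on the log2 scale between KO and WT mice. The promoters of *Wnt11*, *Wnt7a* and *Wif1* held 37, 34 and 21 CpG pairs and that of *Wnt5b* held 7. The median was 20.5 over the member promoters and 6 over all promoters.

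The 10 Frizzled receptor genes showed no common direction, with 6 means higher and 4 lower in KO and none at unadjusted p under 0.05. Frizzled genes encode the receptors that bind Wnt through a cysteine-rich outer domain. The counts were 5 and 5 with quantile normalization, 7 and 3 with the control contrast as a covariate, and 2 and 8 without KO mouse 6. Their differences ran from -0.53 (*Fzd2*) to 0.47 (*Fzd5*), and that of *Fzd2* turned to 0.27 with the covariate. *Fzd5* was at 0.47 (standard error 0.28, 95% confidence interval -0.14 to 1.09). *Fzd2* varied most among them, over 2.70 log2 units across the 8 mice. *Fzd3* was at -0.42 (95% confidence interval -1.14 to 0.30, unadjusted p = 0.225 from limma) and passed an unadjusted p of 0.05 only where the control contrast was a covariate (-0.72, unadjusted p = 0.0460).

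The co-receptor gene *Lrp6* was lower on average in KO mice. Its log2 signal was 9.63, 8.66, 9.30 and 8.66 in KO mice and 9.70, 9.45, 11.50 and 9.98 in WT mice. The genotypes overlapped in that KO mouse 6 lay above WT mouse 2, and WT mouse 3 stood far above all others. In every KO mouse, and in WT mouse 2, the signal was below the 95th percentile of the array's own negative controls. The means were 9.06 ± 0.48 in KO and 10.16 ± 0.92 in WT mice (SD, n = 4 each), and the log2 fold change was -1.09 (standard error 0.46, 95% confidence interval -2.11 to -0.08, unadjusted p = 0.0363 and Benjamini-Hochberg adjusted p = 0.848 from limma). Without WT mouse 3 the difference was -0.65 (unadjusted p = 0.0966). The unadjusted p was also above 0.05 without KO mouse 7 (unadjusted p = 0.0896), KO mouse 9 (unadjusted p = 0.0925) or WT mouse 5 (unadjusted p = 0.0502, all from limma). Quantile normalization (unadjusted p = 0.0593) and the methods' t-test (unadjusted p = 0.0793) also put it above 0.05. Adjusting for the control contrast gave -0.75 (unadjusted p = 0.160), and the part of the contrast was not tested.

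*Lrp5*, the other canonical co-receptor gene, is named after its values were seen, since it followed the AF and fibroblast markers from mouse to mouse. In log2 signal it stood at 9.91, 8.79, 9.67 and 9.23 in KO mice and 9.29, 9.65, 10.12 and 9.50 in WT mice, so that the genotypes overlapped widely. The means were 9.40 ± 0.50 in KO and 9.64 ± 0.35 in WT mice (SD, n = 4 each), and the log2 fold change was -0.24 (standard error 0.33, 95% confidence interval -0.96 to 0.48, unadjusted p = 0.475 from limma), or -0.05 with the control contrast as a covariate. The mean log2 signal of the 12 AF and fibroblast markers was 11.29, 10.59, 11.26 and 10.70 in KO mice and 10.72, 11.15, 11.47 and 10.95 in WT mice. Both measures ordered the 8 mice identically, with KO mouse 7 lowest and WT mouse 3 highest.

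Over the 8 mice Pearson's r of *Lrp5* with these markers was 0.956 (exact permutation test, 2-sided, p = 2.48e-05, the smallest it can give) and Spearman's rho was 1 (exact permutation test, 2-sided, p = 4.96e-05). The family held 75 relations, those of *Wif1*, *Sfrp4*, *Dkk3*, *Lrp6* and *Lrp5* with 14 marker lists and the control contrast. These 5 genes were taken because they exceeded the 95th percentile of the negative controls on at least 1 array, *Lrp6* and *Dkk3* only on WT arrays. Within this family, chosen from the same data, the Benjamini-Hochberg adjusted values were 0.00186 for r and 0.00372 for rho (exact permutation tests). Without KO mouse 7 and WT mouse 3, the mice farthest from the median, r was 0.961. Relations other than those of *Lrp5* with these and the chondrocyte markers had adjusted values above 0.05, among them that of *Dkk3* with the Schwann cell and nerve markers (rho of 0.810, adjusted p = 0.408, exact permutation test). With the 10 chondrocyte and endplate markers r was 0.913 (adjusted p = 0.0846) and rho was 0.952 (adjusted p = 0.0428, exact permutation tests), with r of 0.710 without the same 2 mice. Both measures come from the same arrays, and array-wide differences act on both.

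**Figure D3:**
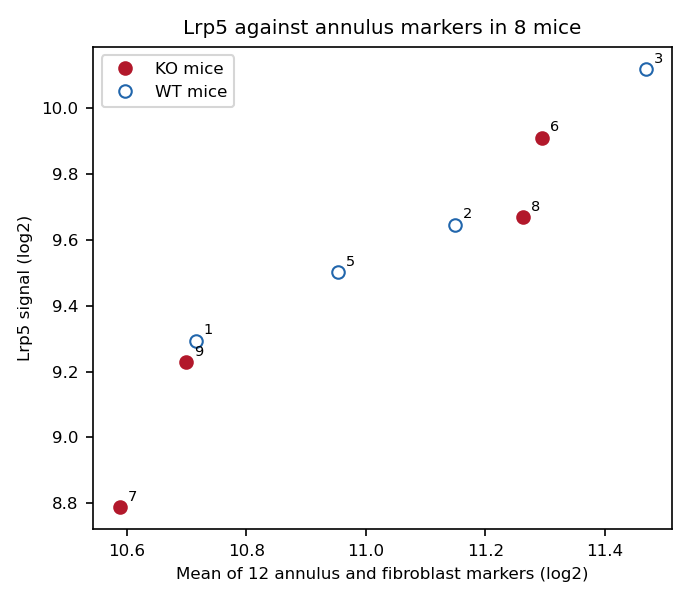
Log2 signal of *Lrp5* (vertical axis) against the mean log2 signal of 12 AF and fibroblast markers (horizontal axis) in each KO mouse (filled red) and WT mouse (open blue), with mouse numbers. Both genotypes lie along 1 rising line, with KO mouse 7 at the lower end and WT mouse 3 at the upper end.

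Among the secreted inhibitors, *Dkk3* was lower on average in KO mice. Its log2 signal was 8.25, 7.64, 7.98 and 8.10 in KO mice and 9.22, 8.78, 10.22 and 7.9996 in WT mice. The KO mice lay close together, WT mouse 5 lay among them and WT mouse 3 stood highest. Only WT mouse 3 was above the 95th percentile of its array's negative controls, and no KO value reached that level on its array. The means were 7.99 ± 0.26 in KO and 9.06 ± 0.93 in WT mice (SD, n = 4 each), and the log2 fold change was -1.06 (standard error 0.43, 95% confidence interval -2.02 to -0.11, unadjusted p = 0.0325 and Benjamini-Hochberg adjusted p = 0.848 from limma), or 2.09-fold lower in KO. Without WT mouse 5 the difference was -1.42 (unadjusted p = 0.00501), which passed the cutoff, as 0.468% of all probe sets did without this mouse, and without WT mouse 3 it was -0.68 (unadjusted p = 0.0939). The unadjusted p was also above 0.05 without KO mouse 7 (unadjusted p = 0.0801), KO mouse 8 (unadjusted p = 0.0549), KO mouse 9 (unadjusted p = 0.0530) or WT mouse 1 (unadjusted p = 0.0618, all from limma). The same held with array quality weights (-0.83, unadjusted p = 0.113) and for the methods' t-test (unadjusted p = 0.0691). Once the control contrast was a covariate the difference was -0.80 (unadjusted p = 0.130), and the part of the contrast was not tested.

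*Wif1* lay between the percentiles 96.5 and 99.1 of the negative controls. Its values were 14.00, 11.93, 13.13 and 13.58 in KO mice and 13.71, 13.56, 14.61 and 12.70 in WT mice. KO mouse 7 was lowest and WT mouse 3 highest, and the genotypes overlapped. The means were 13.16 ± 0.89 in KO and 13.64 ± 0.78 in WT mice (SD, n = 4 each), and the log2 fold change was -0.48 (standard error 0.51, 95% confidence interval -1.61 to 0.64, unadjusted p = 0.360 from limma). The interval spans from a lower to a higher level in KO. Leaving out single mice gave -0.80 (without WT mouse 5) to -0.07 (without KO mouse 7), with -0.77 without KO mouse 6 and -0.16 without WT mouse 3. With the control contrast as a covariate it was -0.17.

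*Sfrp4* varied most of all members among the mice, over 3.13 log2 units. Its values were 11.58, 9.37, 12.50 and 9.55 in KO mice and 11.67, 10.60, 11.09 and 9.44 in WT mice. KO mice 7 and 9 and WT mouse 5 were low, and KO mouse 8 was highest. The means were 10.75 ± 1.54 in KO and 10.70 ± 0.95 in WT mice (SD, n = 4 each), and the log2 fold change was 0.05 (standard error 0.72, 95% confidence interval -1.55 to 1.65, unadjusted p = 0.948 from limma). No direction can be given, since single mice turned it, with -0.53 without KO mouse 8 and 0.51 without KO mouse 7. With the control contrast as a covariate it was 1.06 (unadjusted p = 0.0906).

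**Figure D4:**
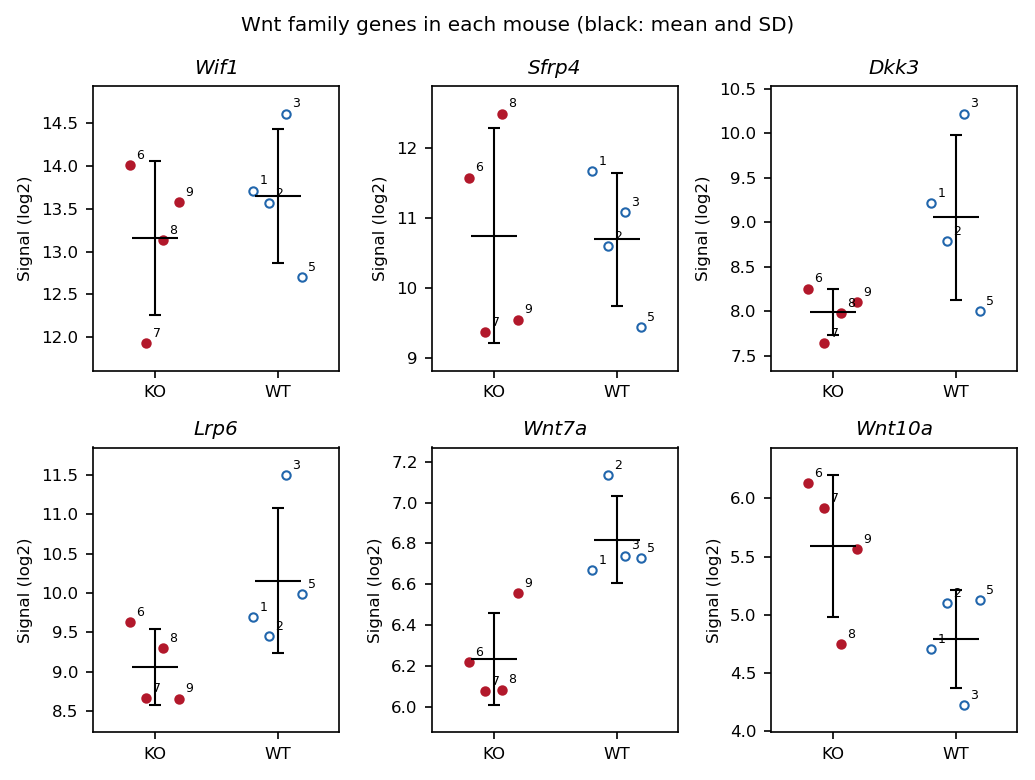
Log2 signal (vertical axis, a separate scale for each gene) in KO mice (left, filled red) and WT mice (right, open blue) for 6 genes, with mouse numbers and the mean and SD in black. The genotypes are apart for *Wnt7a* alone, and WT mouse 3 is the highest mouse for *Wif1*, *Dkk3* and *Lrp6*.

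The other 6 inhibitor genes had unadjusted p-values above 0.05 in limma. *Dkk1*, which blocks the LRP co-receptors, was at -0.42 (95% confidence interval -1.13 to 0.30), and *Sfrp5* at -0.58 (-1.55 to 0.39). *Sfrp2* was at 0.02 (-0.61 to 0.65) and *Sfrp1* at 0.22 (-0.51 to 0.95), or -0.21 and -0.01 with the contrast in the fit. *Dkk2*, *Dkk4* and *Sfrp1* lay below the median negative control on all arrays. Over all 9 inhibitors, 4 means were higher and 5 lower in KO, with a median of -0.04. Quantile normalization gave 3 higher and 6 lower with a median of -0.17, and the control contrast as a covariate gave 2 higher and 7 lower with a median of -0.21. On leaving out single mice the median ran from -0.42 (without KO mouse 8) to 0.05 (without KO mouse 9), so that the inhibitors had no settled direction.

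The 3 intracellular members gave no difference past the threshold. *Lef1*, a factor that carries the beta-catenin signal to DNA, stood at 6.63, 6.78, 7.74 and 7.99 in KO mice and 6.97, 7.09, 8.63 and 8.45 in WT mice. Both genotypes split into 2 lower and 2 higher mice, and the log2 fold change was -0.50 (standard error 0.48, 95% confidence interval -1.56 to 0.56, unadjusted p = 0.320 from limma), or -0.24 with the control contrast as a covariate. Without WT mouse 3 it was -0.22, and without WT mouse 1 it was -0.77. *Axin2*, a feedback inhibitor and widely used target gene of the canonical branch, stood at 5.56, 5.45, 5.16 and 5.48 in KO mice and 5.33, 5.40, 5.26 and 5.21 in WT mice. All its values were below the median negative control of their arrays, and the log2 fold change was 0.11 (standard error 0.24, 95% confidence interval -0.43 to 0.64, unadjusted p = 0.660 from limma). *Axin1*, the scaffold of the destruction complex, stood at 6.96, 7.78, 8.45 and 8.11 in KO mice and 7.51, 7.48, 8.34 and 8.81 in WT mice, with a difference of -0.21 (standard error 0.42, 95% confidence interval -1.13 to 0.71), or 0.00250 with the control contrast.

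Other genes of the pathway, from 8 lists with 83 genes measured, gave 5 at unadjusted p under 0.05 in limma, 2 higher and 3 lower in KO, beside the 5.28% of all probe sets. Over these genes 37 means were higher and 46 lower in KO, or 43 higher and 40 lower with the control contrast as a covariate. All 3 lower genes were cytoplasmic transducers, of which 25 were measured with 6 means higher and 19 lower in KO, or 10 higher and 15 lower with the control contrast as a covariate. Of all probe sets, 2.46% were lower at unadjusted p under 0.05 and 47.6% had a lower mean in KO, a share that was 71.9% (2020 of 2811) among those above background on at least 4 arrays. Both higher genes were R-spondins, secreted proteins that raise Wnt signalling by keeping its receptors at the cell surface, in a list of 8 with their receptors. The other 6 lists gave none at this threshold. Genotypes did not overlap for 3 of the 83 genes with KO higher (*Rspo1*, *Tnfrsf19* and *Draxin*) and for 2 with KO lower (*Fbxw11* and *Csnk1a1*). Of all probe sets, 1.55% had no overlap with KO higher and 0.973% with KO lower. *Tnfrsf19* and *Draxin* had unadjusted p-values of 0.0865 and 0.0943 from limma.

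*Fbxw11*, the beta-TrCP2 subunit that recognises phosphorylated beta-catenin for ubiquitination, was the 1 pathway gene of 83 at the cutoff, which 0.725% of all probe sets passed, 0.297% with KO lower. Its values were 6.68, 7.07, 7.20 and 7.22 in KO mice and 8.20, 8.33, 8.26 and 8.35 in WT mice, with no overlap, a log2 fold change of -1.25 (standard error 0.25, unadjusted p = 0.000488 and Benjamini-Hochberg adjusted p = 0.848 from limma). The signal was above the median negative control on all 8 arrays but above the 95th percentile on none (percentiles 66.7 to 89.9), so that the filter on low signal left it out. With the control contrast as a covariate the difference was -1.23 (unadjusted p = 0.00124 from limma). Leaving out single mice gave -1.30 to -1.13, with an unadjusted p under 0.05 from limma in all 8 fits. *Csnk1a1*, the casein kinase that primes beta-catenin for destruction, stood at 10.71, 9.65, 11.40 and 10.13 in KO mice and 11.40, 11.72, 12.16 and 11.40 in WT mice. KO mouse 8 lay just below the lowest WT mouse, and the log2 fold change was -1.20 (standard error 0.39, unadjusted p = 0.0115 from limma), or -0.75 (unadjusted p = 0.0591) with the control contrast as a covariate. Without single mice it was -1.51 to -0.92, with an unadjusted p under 0.05 from limma in all 8 fits. *Csnk1e*, a casein kinase that acts with Dishevelled, stood at 11.05, 10.91, 11.67 and 10.75 in KO mice and 11.67, 11.59, 12.05 and 11.78 in WT mice. Here KO mouse 8 lay within the WT range, and the log2 fold change was -0.68 (standard error 0.29, unadjusted p = 0.0386 from limma), or -0.42 (unadjusted p = 0.151) with the contrast. On leaving out single mice its p stayed under 0.05 only without KO mouse 8 (unadjusted p = 0.00798) or WT mouse 2 (unadjusted p = 0.0474, both from limma). It was also above 0.05 with quantile normalization (-0.43, unadjusted p = 0.0847), an intensity trend (unadjusted p = 0.0923) and the filter on low signal (unadjusted p = 0.0580). *Csnk1a1* was above the 95th percentile of the negative controls on 6 arrays and *Csnk1e* on 7. The part of the contrast in the differences of *Csnk1a1* and *Csnk1e* was not tested.

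*Rspo3*, an R-spondin expressed in many connective tissues, stood at 8.53, 8.09, 8.68 and 8.98 in KO mice and 7.55, 8.45, 7.76 and 7.13 in WT mice. WT mouse 2 lay among the KO mice, and the log2 fold change was 0.85 (standard error 0.34, unadjusted p = 0.0318 from limma). On no array was *Rspo3* above the 95th percentile of the negative controls (percentiles 75.9 to 92.8). *Rspo1* stood at 5.61, 5.50, 5.33 and 5.91 in KO mice and 5.22, 4.95, 4.93 and 4.88 in WT mice. Its genotypes did not overlap, but it was above the median negative control on only 1 array, and the log2 fold change was 0.59 (standard error 0.25, unadjusted p = 0.0410 from limma). Adjusting for the control contrast gave 0.84 for *Rspo3* (unadjusted p = 0.0609) and 0.55 for *Rspo1* (unadjusted p = 0.0740, both from limma). *Rspo3* was also above 0.05 with an intensity trend (unadjusted p = 0.0526), and *Rspo1* with quantile normalization (unadjusted p = 0.0736) and median centring (unadjusted p = 0.0507). Leaving out single mice put the unadjusted p of *Rspo3* at up to 0.102 (without WT mouse 5) and that of *Rspo1* at up to 0.104 (without KO mouse 9). *Frzb*, also known as Sfrp3, belongs beside the members by its role and was named after its values were seen. It stood at 11.39, 9.27, 10.73 and 9.87 in KO mice and 10.69, 10.77, 12.34 and 10.57 in WT mice, with overlap, a log2 fold change of -0.77 (standard error 0.53, 95% confidence interval -1.94 to 0.39, unadjusted p = 0.172 from limma), or -0.33 with the control contrast as a covariate.

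**Figure D5:**
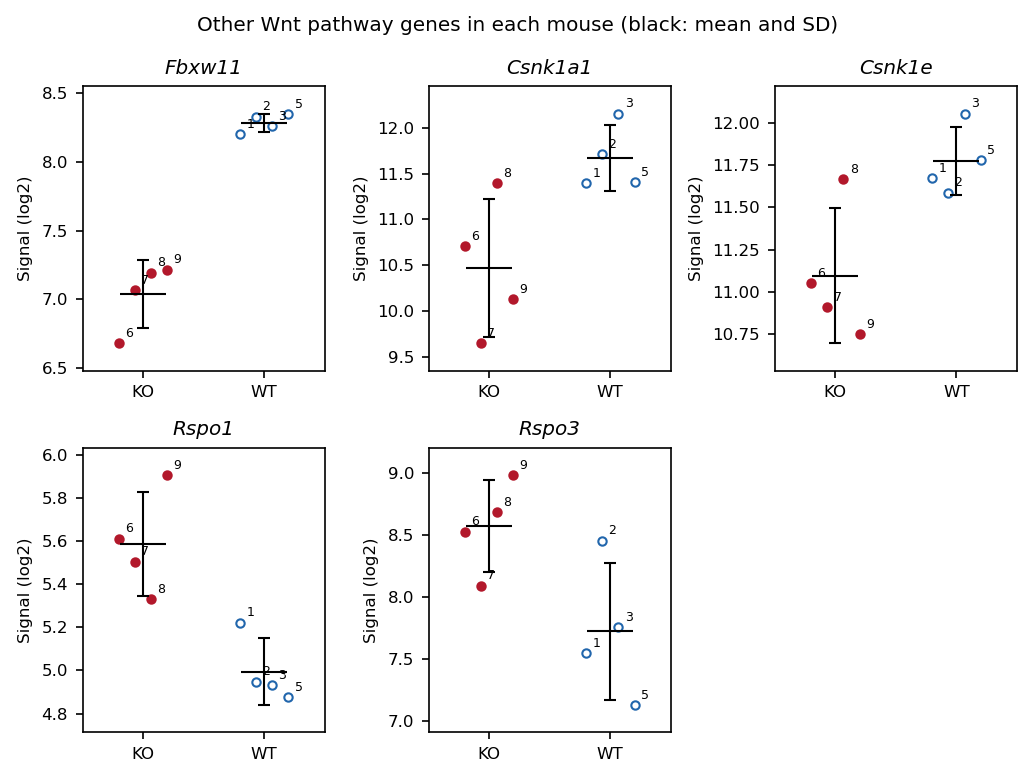
Log2 signal (vertical axis, a separate scale for each gene) in KO mice (left, filled red) and WT mice (right, open blue) for the 5 other pathway genes at unadjusted p under 0.05, with mouse numbers and the mean and SD in black. *Fbxw11* shows the widest gap between genotypes, whereas KO mouse 8 lies just below the WT range for *Csnk1a1* and within it for *Csnk1e*.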

How the data were processed

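AF RNA of 4 KO and 4 WT mice was hybridized to Mouse Clariom S arrays, and the authors normalized the signals with sst-RMA in the Transcriptome Analysis Console software. Log2 signals were deposited for 28846 probe sets, with no detection p-values, so that the authors' filter on detection was not applied. The genome build is not given in the sources used here. All sample columns were used (0 left out). Tests excluded the 6640 control probe sets, of which 5222 negative and 1324 positive ones served to measure background. Symbols are those of the platform annotation, and all 43 members matched RefSeq (GRCm38.p6) by gene ID.

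A linear model of KO minus WT ran over 22206 probe sets in R 4.3.3, using lmFit and eBayes of limma 3.58.1 with Benjamini-Hochberg adjustment. The procedure was tested on simulated data. Members and lists were chosen with earlier results of these data known. Values of each mouse were planned for members at the cutoff, at unadjusted p under 0.05, without overlap or above background on at least 4 arrays. They were also planned for *Axin2* and *Lef1*, and pathway genes at unadjusted p under 0.05 are named. *Wnt10a*, *Lrp5*, *Axin1*, *Frzb*, *Tnfrsf19* and *Draxin* fall outside these rules. Alternatives were quantile normalization, median centring, a filter on low signal, an intensity trend with robust prior, array weights, the methods' t-test, the control contrast as a covariate, other cutoffs, other marks of background, and leaving out each mouse.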

Additional observations from a re-analysis of the deposited data

Results flagged for a closer look

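In 4 of 96 groups of 4 mice (4.17%) 1 mouse stood far from the other 3 of its genotype. The groups were the KO and the WT mice of each of the 43 members and of 5 other pathway genes, and chance gives this in about 1 in 20 groups. KO mouse 8 had a log2 signal of 4.35 for *Wnt2b*, against 5.64 to 5.88 in the other KO mice. WT mouse 3 had 4.88 for *Wnt5a*, against 5.47 to 5.58 in the other WT mice. WT mouse 2 had 7.14 for *Wnt7a*, against 6.67 to 6.74, and 6.73 for *Sfrp2*, against 5.90 to 6.02 in the other WT mice.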

How the results depend on the processing

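No paired analysis was possible because the KO and WT mice share no replicate numbers. Members at the cutoff numbered 0 under every normalization and fit tried. With p of at most 0.05 in place of 0.01 they numbered 2, and the share of all probe sets at that mark was not counted. On leaving out single mice they numbered 0 to 1 (*Dkk3* without WT mouse 5, *Wnt10a* without KO mouse 8). Without these mice 0.468% and 4.47% of all probe sets passed the cutoff. Members at unadjusted p under 0.05 numbered 0 with the filter on low signal, which left 2 members. Without single mice they numbered 0 to 2, against 3 (5.28% of all probe sets). The count was 0 without KO mouse 7 or WT mouse 3, where 3.14% and 2.40% of all probe sets passed. Members higher in KO numbered 1 of 2 with the filter and 17 (without KO mouse 6) to 26 (without KO mouse 9) without single mice, against 25. They numbered 18 with quantile normalization and 21 with median centring. Members without overlap numbered 2 with median centring and 1 to 4 without single mice (4 without KO mouse 8), against 1. Fewer mice in a genotype make a lack of overlap more likely, and the share of all probe sets was not counted in these settings. Members above background numbered 18 against the median of the negative controls and 1 on all 8 arrays, against 2. Other pathway genes at unadjusted p under 0.05 numbered 5 of 83 in the main fit (5.28% of all probe sets). The filter left 13 of the 83 genes and gave 1 (6.08% of the probe sets it kept), and the intensity trend gave 3 (5.42% of all probe sets). Array weights gave 13 of 83 (13.7%), the methods' t-test 9 (4.73%) and the control contrast 2 (2.63%). Leaving out single mice gave 2 to 9 (9 without KO mouse 8, where 15.7% of all probe sets passed). Directions turned for *Axin2* with quantile normalization (-0.0125) and for *Sfrp4* with median centring (-0.00039), which shifts all genes alike and so says little of a difference near 0, and without KO mouse 6 (-0.23), KO mouse 8 (-0.53) or WT mouse 5 (-0.37), where leaving out single mice gave -0.53 to 0.51. Of the other settings for single genes, 115 kept direction and side of the threshold and 52 kept the direction alone. The cause of these changes was not tested, except that the filter tests fewer genes. Signals near the negative controls limit what can be said of most ligands.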
